A study of Arabidopsis thaliana with 6 samples.

Results

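The miRNAs of Arabidopsis are numbered in the order in which they were registered, so that the families conserved across land plants mostly carry low numbers, while families numbered above 400 are mostly young and restricted to Arabidopsis or its close relatives. The high-numbered mature miRNAs were examined in small RNA libraries of rosette leaves. They were chosen by name: a sequence was included when the family number of its first name was above 400, with the exception of miR403, miR408, miR827, miR828, miR840, miR857, miR866 and miR5026. By this rule 239 of the 349 mature sequences in the deposited table were members, from 176 families, and 110 sequences formed the rest. The rest includes the 12 sequences of the 8 excepted families, so the counts and sums of members depend on these exceptions. The label "young" was not tested here. From general knowledge, a few of the included families, such as miR472, miR845, miR858 and miR2111, are also found outside the Brassicaceae.

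The plants were 3-week-old Arabidopsis thaliana of the Col background grown in soil, and 2 biological replicate libraries were sequenced for each of 3 genotypes. hyl1-2 is a mutant allele of HYL1 (HYPONASTIC LEAVES 1), snrk2.2/3/6 is a triple mutant of the kinase genes SnRK2.2, SnRK2.3 and SnRK2.6, and the wild type (WT) carried none of these mutations. No treatment is listed for any genotype, and each mutant was represented by a single line. The table holds reads identical to mature miRNAs and no messenger RNA, so neither the transcripts of the mutated genes nor markers of leaf cells could be used to check the labels. In such bulk samples fewer cells of a type and less RNA per cell cannot be told apart.

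Plant miRNAs are cut from hairpins within longer transcripts by DICER-LIKE 1 (DCL1), which works with the double-stranded RNA-binding protein HYL1 and the zinc finger protein SERRATE. The hairpins of some young miRNAs are long and nearly perfectly paired, and a few, such as that of miR822, are instead cut by DICER-LIKE 4 (DCL4). Young miRNAs are typically weakly expressed, and many have no known target. SnRK2.2, SnRK2.3 and SnRK2.6 are protein kinases activated by the stress hormone abscisic acid (ABA).

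The sequences on which the results turned are given 5′ to 3′ as deposited, with T for U, and capitals mark bases 2 to 8, the seed. The first 7 had enough reads to be tested in all 3 comparisons.
miR3932b-5p: tTTGACGTgctcgatctgctc
miR447a.2-3p: tATGGAAGaaattgtagtatt
miR822-5p: tGCGGGAAgcatttgcacatg
miR846-3p: tTGAATTGaagtgcttgaatt
miR824-3p: cCTTCTCAtcgatggtctaga
miR825: tTCTCAAGaaggtgcatgaac
miR781a/b: tTAGAGTTttctggatactta
Of the less abundant members, miR843 and miR5996 had the lowest p-values in snrk2.2/3/6, miR5642a/b was the member called higher in hyl1-2 than in snrk2.2/3/6, and miR858b and miR858a are copies offset by 1 base.
miR843: tTTAGGTCgagcttcattgga
miR5996: tGACATCCagatagaagctttg
miR5642a/b: tCTCGCGCttgtacggcttt
miR858b: tTCGTTGTctgttcgaccttg
miR858a: tTTCGTTGtctgttcgacctt
No pair among these 12 sequences had the same seed. In the whole group 220 of the 239 members shared bases 2 to 8 with no other sequence of the table, and 16 members fell into 8 groups of members with a common seed.

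Each tested sequence had an exact match to the TAIR10.1 genome within an annotated MIR gene on the same strand. miR822-5p lay in MIR822 (AT5G03552) at chr5:897287-897307 on the minus strand, miR824-3p in MIR824 (AT4G24415) at chr4:12625721-12625741 on the plus strand, and miR846-3p in MIR846 (AT1G61226) at chr1:22577662-22577682 on the plus strand. miR825 lay in MIR825 (AT2G26211) at chr2:11159774-11159794 on the plus strand, which is also exonic in the transcribed pseudogene AT2G26220. miR3932b-5p had 2 matches, one in MIR3932b (AT4G06130) at chr4:7890695-7890715 on the minus strand and one at chr4:2178984-2179004 on the plus strand, where no gene is annotated. The MIR3932b match is also exonic in the protein-coding gene AT4G13575 on the same strand. miR447a.2-3p matched MIR447a (AT4G03445) at chr4:1528148-1528168 and MIR447b (AT4G03455) at chr4:1535440-1535460, both on the minus strand, so that its reads could come from either gene. MIR781a (AT1G21202) and MIR781b (AT1G05637) overlap on opposite strands, with matches at chr1:7423523-7423543 on the plus strand and chr1:7423585-7423605 on the minus strand, both inside an intron of the protein-coding gene AT1G21200.

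The 6 libraries held 16041013 to 19601046 genome-matched small RNA reads and 6670 to 34567 miRNA reads. Levels are given in RPTM, the reads per 10000000 genome-matched reads, a scale on which a loss common to most miRNAs is kept. The snrk2.2/3/6 replicates stood apart from each other, with 29014 miRNA reads in replicate 1 and 10386 in replicate 2. Replicate 1 was the higher of the pair for 21 of the 28 members with at least 10 reads and for 67 of the 70 other sequences with as many reads. Results for this mutant are therefore also given by library.

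Most high-numbered miRNAs had no read in rosette leaves. At least 1 read in any of the 6 libraries was found for 84 of the 239 members (35.1%), against 90 of the 110 other sequences (81.8%). At least 10 reads summed over the libraries were found for 28 members (11.7%) against 70 other sequences (63.6%). Another 56 members had 1 to 9 reads, of which 18 had a single read, and 155 had none. In a single library a count of 0 allows up to 3 reads, or 1.53 to 1.87 RPTM. These 155 had no read in any of the 6 libraries, and whether they are unexpressed or below detection was not tested. The members together had 2891 reads, 2.45% of all miRNA reads. The excepted sequence miR5026 alone had 9016 reads.

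Detection differed with the family number. Among miR771 to miR870, 43 of 89 sequences had a read (48.3%) and 16 had at least 10. Among miR4221 to miR5999, 24 of 82 had a read (29.3%) and 6 had at least 10. The 25 sequences of miR1886 to miR3933 included 8 with a read (32.0%) but only miR3932b-5p with at least 10, and this sequence had 1349 of the 1372 reads of that range. Of the 21 sequences of miR401 to miR472, 4 were detected (19%), all from miR447 and miR472 and all with at least 10 reads, and of the 22 sequences of miR8121 to miR8184, 5 were detected (22.7%), among which miR8175 alone reached 10 reads.

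**Figure D1:**
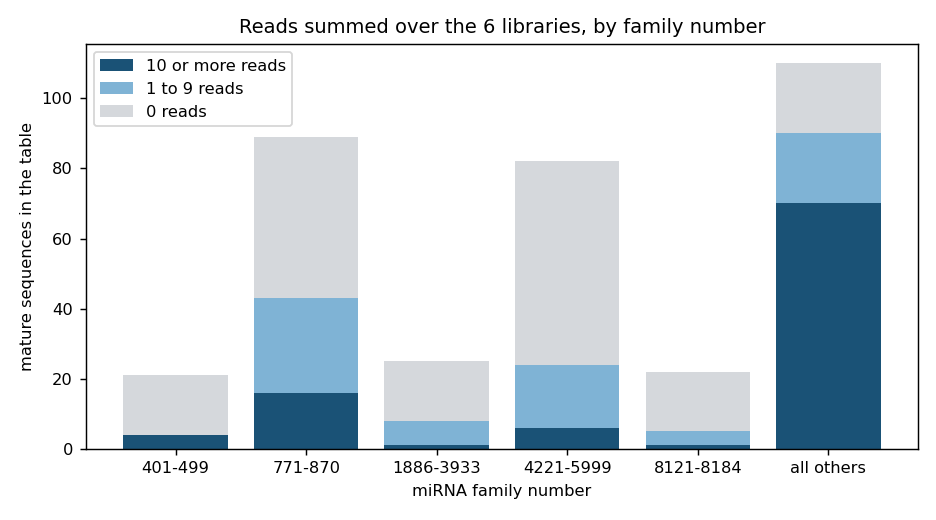
Number of mature sequences (vertical axis) by miRNA family number (horizontal axis), split into those with 0 reads, 1 to 9 reads and 10 or more reads summed over the 6 libraries; the last bar holds the 110 sequences that are not members. In each range of members the sequences with 0 reads outnumber those with 10 or more, whereas 70 of the 110 other sequences had 10 or more.

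Fewer members were detected in hyl1-2 than in the other genotypes. The hyl1-2 libraries had 24 and 27 members with a read, the snrk2.2/3/6 libraries 52 and 31, and the WT libraries 60 and 60. For the other sequences the numbers were 67 and 60 in hyl1-2, 73 and 74 in snrk2.2/3/6, and 85 and 82 in WT. Both libraries of a genotype held a read for 13 members in hyl1-2, 26 in snrk2.2/3/6 and 47 in WT. Reads in a single genotype were seen for 3 members in hyl1-2, 7 in snrk2.2/3/6 and 18 in WT, with at most 3, 2 and 4 reads, counts too low to separate the genotypes.

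The members made up a smaller share of the miRNA reads in both mutants than in WT. The share was 1.60% (95% Wilson interval 1.33 to 1.91) and 1.95% (1.64 to 2.31) in the hyl1-2 libraries and 2.08% (1.93 to 2.26) and 1.54% (1.32 to 1.80) in the snrk2.2/3/6 libraries, against 2.67% (2.50 to 2.85) and 3.15% (2.96 to 3.35) in the WT libraries. The intervals of the mutant libraries lay below those of WT. Without miR3932b-5p, the member with the most reads, the hyl1-2 shares were 1.36% and 1.5%, the snrk2.2/3/6 shares 1.33% and 1.17%, and the WT shares 1.17% and 1.43%, so that the genotypes overlapped. These intervals, like all counting intervals here, cover counting error only. With 2 libraries against 2 the smallest two-sided p of an exact permutation test is 0.333, so these sums were not tested.

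On the RPTM scale the members summed to 64.4 ± 8.82 in hyl1-2 and 229 ± 183 in snrk2.2/3/6, against 576 ± 16.9 in WT (SD, n = 2 each). As a percentage of the WT mean this was 10.1% and 12.3% in the hyl1-2 libraries and 62.1% and 17.3% in the snrk2.2/3/6 libraries. The remaining 110 sequences summed to 18.5% and 18.4% of WT in hyl1-2 and to 87.0% and 33.0% in snrk2.2/3/6. Much of this gap rested on 1 sequence. Without miR3932b-5p, the members summed to 51.9 ± 3.42 RPTM in hyl1-2 and 152 ± 108 in snrk2.2/3/6, against 257 ± 14.4 in WT. That was 19.3% and 21.2% of WT in hyl1-2, and 89.0% and 29.4% in snrk2.2/3/6, near the values of the other sequences, with no test of the difference. The 92 sequences of deeply conserved families alone summed to 16.5% and 12.8% of WT in hyl1-2, and to 78.0% and 34.4% in snrk2.2/3/6. The 56 members with 1 to 9 reads summed to 6.10 ± 2.13 RPTM in hyl1-2 and 18.2 ± 17.8 in snrk2.2/3/6, against 33.4 ± 0.359 in WT. As a percentage of the WT mean this was 13.8% and 22.8% in the hyl1-2 libraries, and 92.2% and 16.8% in the snrk2.2/3/6 libraries.

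**Figure D2:**
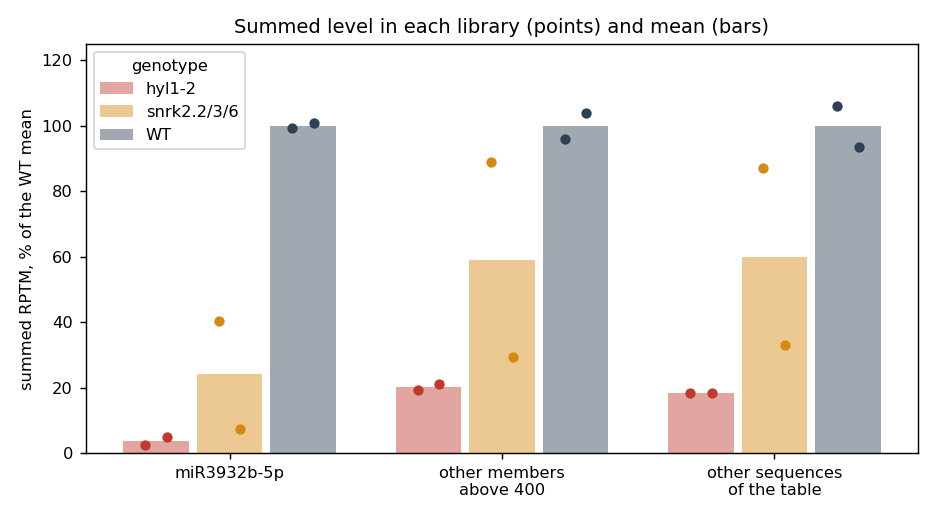
Summed RPTM as a percentage of the WT mean (vertical axis) for miR3932b-5p, the remaining members and the 110 other sequences; bars are means of 2 libraries and points are single libraries of hyl1-2, snrk2.2/3/6 and WT. miR3932b-5p stood at 3.90% of WT in hyl1-2, while the remaining members (20.2%) and the other sequences (18.5%) stood close to each other.

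Seen sequence by sequence, the 28 members with at least 10 reads had a median level of 12.5% of WT in hyl1-2 and 60.2% in snrk2.2/3/6. Over all 98 sequences with at least 10 reads the medians were 14.5% and 60.5%. Setting the 6 members without a hyl1-2 read at the floor of 3 reads per library raised the hyl1-2 median to 25.4%, and the same step over all sequences gave 21.3%. By library the medians of the 28 were 2.62% and 3.89% for hyl1-2, and 82.8% and 29.3% for snrk2.2/3/6. Over all 98 sequences they were 14.2% and 14.1% for hyl1-2, and 84.9% and 29.6% for snrk2.2/3/6. In a single hyl1-2 library many of the 28 had no read and entered these medians as 0%. In hyl1-2, 23 of the 28 were at or below 50% of WT and 2 were above 100%, compared with 81 and 8 of all 98 sequences. In snrk2.2/3/6 these numbers were 12 and 7 of the 28, compared with 40 and 24 of the 98. The 28 were selected on reads summed over all libraries, most of which came from WT, so the medians describe these sequences and not all 239 members.

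**Figure D3:**
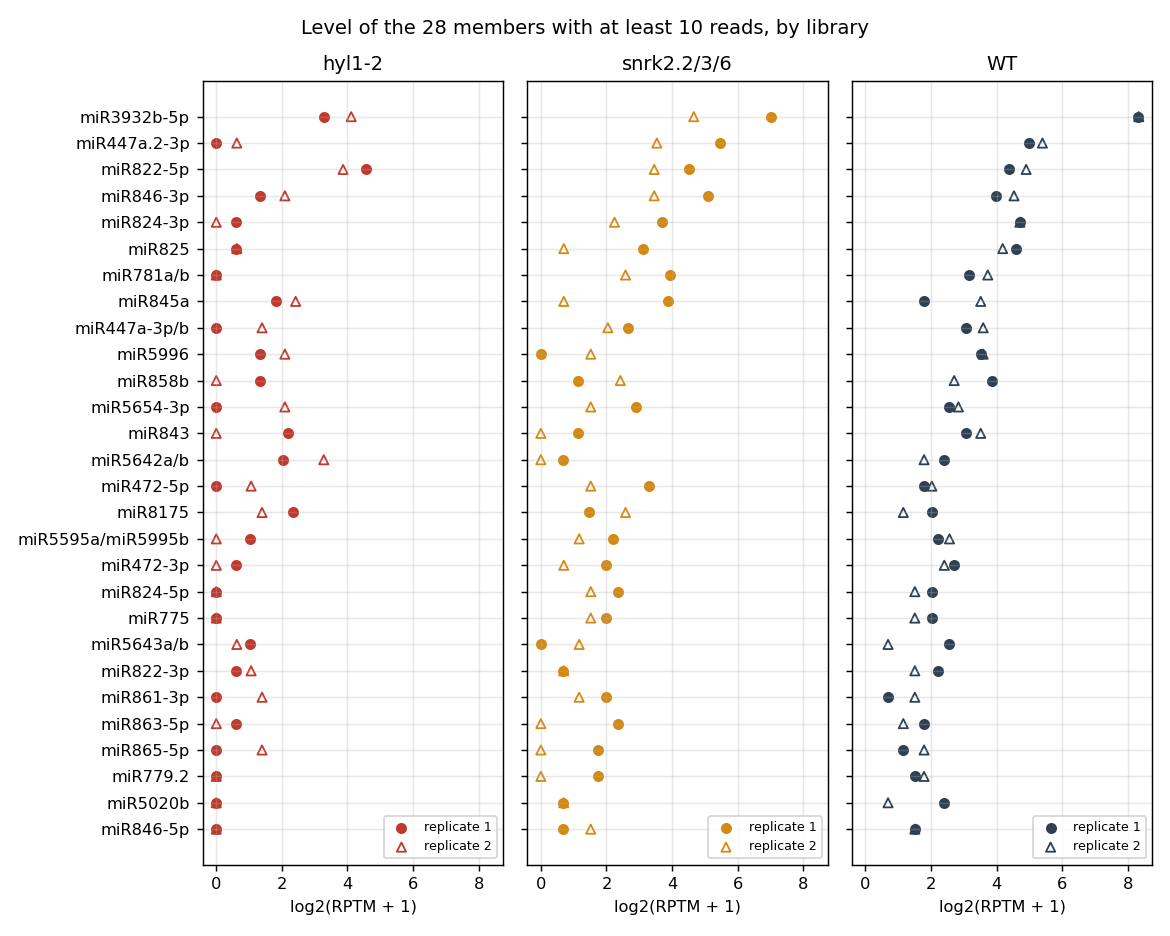
Level of the 28 members with at least 10 reads, as log2(RPTM + 1), in each library of hyl1-2, snrk2.2/3/6 and WT; circles are replicate 1 and triangles replicate 2, and members are ordered by their total reads. Most hyl1-2 points lie near 0, and replicate 2 of snrk2.2/3/6 lies below replicate 1 for 21 of the 28. The hyl1-2 and WT points overlap for 7 members, among them miR822-5p, miR5642a/b and miR8175.

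Counts were compared by edgeR's quasi-likelihood test in 1 fit of all 6 libraries, with genome-matched totals as library sizes and Benjamini-Hochberg adjustment over the 59 sequences of the table that had a mean of at least 10 reads. Of the 7 members among them, 6 were lower in hyl1-2 than in WT and none was higher, at an adjusted p of 0.05. Over all tested sequences 67.8% were called lower in hyl1-2, so that most of the table moved in the same direction as the members. The 6 were miR3932b-5p, miR447a.2-3p, miR824-3p, miR825, miR781a/b and miR846-3p. The seventh was miR822-5p. Among the excepted sequences, miR840-5p was called higher in hyl1-2 (log2 fold change 3.60, edgeR adjusted p = 0.00178) and miR403-3p lower (-2.98, edgeR adjusted p = 0.00848). miR5026 (-0.08) and miR866-3p (0.22) were not called (edgeR adjusted p = 0.916 and 0.867). Where a genotype had 0 to 3 reads of a sequence, the fitted log2 fold change depends on the prior count of the fit, and the share of WT reads is given beside it. The counting interval of that share covers counting error in pooled reads only and is narrower than the spread between libraries allows. With TMM factors, which remove a change common to most miRNAs, 5 of the 7 were lower and 1 was higher, while 25.4% of all tested sequences were called lower and 16.9% higher. Without a filter on low counts no member passed the adjusted threshold, although 19 were lower at an unadjusted p below 0.05. The share of all sequences past either threshold is not given for that fit, so these counts say nothing about the members alone.

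miR3932b-5p had the most reads of any member in each WT and snrk2.2/3/6 library, while in hyl1-2 the pooled libraries held more reads of miR822-5p. miR3932b-5p had 17 and 30 reads in hyl1-2 and 219 and 39 in snrk2.2/3/6, against 520 and 524 in WT. Its level was 12.5 ± 5.39 RPTM in hyl1-2 and 77.0 ± 74.5 in snrk2.2/3/6, against 320 ± 2.44 in WT. The WT replicates were nearly equal and no library of either mutant reached them. The pooled reads of hyl1-2 were 3.87% of WT (95% exact counting interval 2.82 to 5.18), and edgeR gave a log2 fold change of -4.67 ± 1.11 (SE, adjusted p = 0.000285). Without hyl1-2 replicate 1 the adjusted p was 0.0632, in a range of 4.48e-08 to 0.07 over all alternatives.

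miR447a.2-3p and miR447a-3p/b come from the same strand of the MIR447 hairpins, and the sequence listed as miR447a-3p/b is the one known to act on genes related to 2-phosphoglycerate kinase. miR447a.2-3p had 0 and 1 reads in hyl1-2, against 50 and 67 in WT. These were 0.734% of WT (0.0184 to 4.17), with a log2 fold change of -6.74 ± 1.29 (edgeR adjusted p = 1.03e-05). It kept 72 and 17 reads in snrk2.2/3/6, a range that overlapped WT. miR447a-3p/b had 0 and 3 reads in hyl1-2 and 9 and 5 in snrk2.2/3/6, against 12 and 18 in WT. Of the 4 miR447 sequences in the table, both from miR447c had no read, although miR447c-3p has the seed of miR447a-3p and differs from it by 2 bases.

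From the MIR824 hairpin both strands were read. The 5p strand is the one known to act on AGL16, a MADS-box gene with a role in stomatal development, and the 3p strand is its partner in the duplex. miR824-3p had 1 and 0 reads in hyl1-2, 20 and 6 in snrk2.2/3/6, and 41 and 41 in WT. In hyl1-2 it was at 1.05% of WT (0.0262 to 6.00), with a log2 fold change of -6.24 ± 1.32 (edgeR adjusted p = 4.90e-05). miR824-5p had no read in hyl1-2, 7 and 3 in snrk2.2/3/6, and 5 and 3 in WT. The 3p strand was thus the more abundant one in WT and in snrk2.2/3/6, where the reads pooled over both libraries were 26 for 3p against 10 for 5p, compared with 82 against 8 in WT.

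miR825 was represented in hyl1-2 by a single read per library. It had 1 and 1 reads in hyl1-2 and 13 and 1 in snrk2.2/3/6, against 38 and 28 in WT. In hyl1-2 this was 2.60% of WT (0.309 to 9.78), and the log2 fold change was -5.08 ± 1.29 (edgeR adjusted p = 0.000561). The reads of snrk2.2/3/6 also stayed below those of WT in each library. The hyl1-2 call was lost without WT replicate 1 (adjusted p = 0.0666) and with the size factors of DESeq2 (adjusted p = 0.0897), at the upper end of a range of 8.22e-06 to 0.0897 over all alternatives.

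miR781a/b was the one tested member with no read in hyl1-2. It had 24 and 8 reads in snrk2.2/3/6 and 13 and 20 in WT. Against the floor of 3 reads per library it was at least 6.40-fold lower in hyl1-2 than in WT, and the edgeR call had an adjusted p of 0.000935 (0.0668 without WT replicate 2, in a range of 4.23e-05 to 0.07 over all alternatives).

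miR846, which acts on jacalin lectin genes and is made from a transcript known to respond to ABA, had the smallest decrease of the 6. miR846-3p had 3 and 6 reads in hyl1-2 and 56 and 16 in snrk2.2/3/6, against 24 and 36 in WT. The level was 12.9% of WT in hyl1-2 (5.62 to 26.1), and the log2 fold change was -2.91 ± 0.99 (edgeR adjusted p = 0.00871). This call depended on the scaling and on single libraries, since the adjusted p was 0.787 with TMM factors. It was 0.0870 without hyl1-2 replicate 1 and 0.0980 without WT replicate 2, in a range of 0.00124 to 0.787 over all alternatives. miR846-5p, the other strand, had no read in hyl1-2, 1 and 3 in snrk2.2/3/6, and 3 and 3 in WT. The third jacalin-related member, miR842, had no read in any library.

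miR822-5p remained in hyl1-2. It had 44 and 25 reads in hyl1-2 and 37 and 16 in snrk2.2/3/6, against 32 and 47 in WT. Both mutants overlapped WT. The mean level was 18.02 ± 6.27 RPTM in hyl1-2 and 15.9 ± 8.43 in snrk2.2/3/6, against 24.2 ± 6.55 in WT. hyl1-2 was at 75.0% of WT (53.5 to 105), with a log2 fold change of -0.42 ± 0.85 (edgeR adjusted p = 0.665). The direction depended on the scaling: TMM factors shifted the median of all tested sequences in hyl1-2 from a log2 fold change of -2.62 to 0.12, and miR822-5p was then higher in hyl1-2 by 2.36 (adjusted p = 0.00568, range 0.000629 to 0.933 over all alternatives). On either scale it stood above the median of the table. The other strand, miR822-3p, had 1 and 2 reads in hyl1-2 and 1 and 1 in snrk2.2/3/6, against 6 and 3 in WT. Of the 5 members known to be cut by DCL4, those of miR839 and miR869 had no read, so that miR822 alone stood for them.

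**Figure D4:**
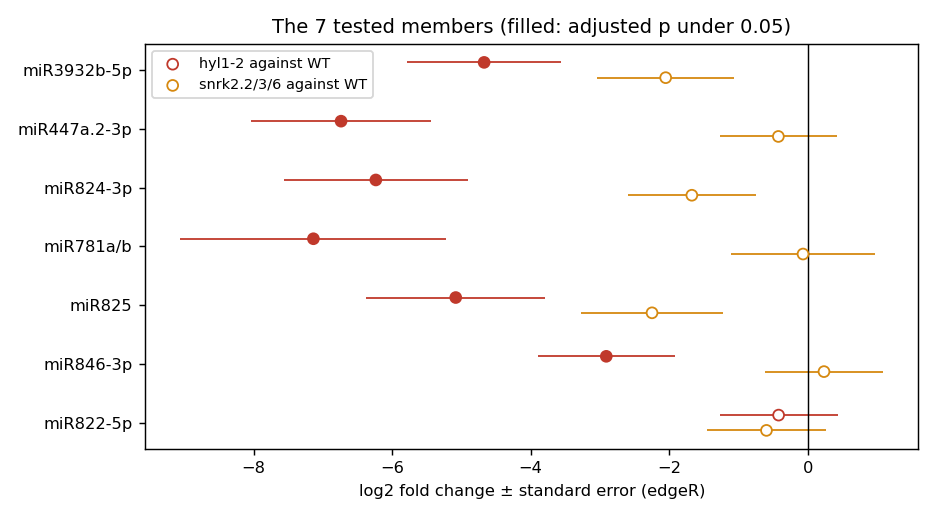
Log2 fold change ± standard error (horizontal axis, edgeR) of the 7 tested members in hyl1-2 and in snrk2.2/3/6, each against WT; filled points have an adjusted p under 0.05. 6 of the 7 are filled in hyl1-2, miR822-5p is close to 0 in both mutants, and no point of snrk2.2/3/6 is filled.

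The other 21 members with 10 or more reads were too low for this test. They were included in a second fit of all 98 sequences with at least 10 reads summed, in which 14 of the 28 members were lower in hyl1-2 than in WT and none was higher. In that fit 58.2% of all sequences were called lower. Besides the 6 named above, these were miR858b, miR447a-3p/b, miR472-3p, miR5020b, miR775, miR824-5p, miR779.2 and miR846-5p, with adjusted p of 0.0183 to 0.0449. The last 5 of these had no read in hyl1-2 and passed the filter only through the other genotypes. Against the floor of 3 reads per library, miR5020b, miR775 and miR824-5p were at least 1.55-fold lower than in WT. For miR779.2 and miR846-5p the bounds were 1.36-fold and 1.16-fold, so these calls carry little weight. Reads in both hyl1-2 libraries were below both WT libraries for 21 of the 28 members on the RPTM scale, above them for 0, and overlapped for 7, and over all 98 sequences 83.7% were below. The 7 that overlapped were miR822-5p, miR845a, miR5642a/b, miR8175, miR5643a/b, miR861-3p and miR865-5p.

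Among the members with known roles, miR858 acts on MYB genes of flavonoid synthesis. miR858b had 3 and 0 reads in hyl1-2 and 2 and 7 in snrk2.2/3/6, against 22 and 9 in WT. Its sister miR858a had 2 and 0 reads in hyl1-2 and 4 and 1 in snrk2.2/3/6, against 1 and 0 in WT, and the 21 bases of miR858b also occur in the MIR858a gene. The copies therefore differed in abundance in WT, and reads of miR858b could come from either gene. miR847, which also acts on a gene for a transcriptional regulator, had 7 reads over the 6 libraries.

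The 3p strand of miR472 acts on disease resistance genes of the NBS-LRR class, and the MIR472 gene lies inside an exon of AT1G12290, a protein-coding gene on the same strand. miR472-3p had 1 and 0 reads in hyl1-2 and 5 and 1 in snrk2.2/3/6, against 9 and 7 in WT. miR472-5p had 0 and 2 reads in hyl1-2 and 15 and 3 in snrk2.2/3/6, against 4 and 5 in WT. The 3p strand had more reads than the 5p strand in WT (16 against 9) and fewer in snrk2.2/3/6 (6 against 18), a difference in read counts that was not tested.

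miR845a, known to bind the primer binding sites of retrotransposons, did not follow the genotypes. It had 5 and 8 reads in hyl1-2 and 23 and 1 in snrk2.2/3/6, against 4 and 17 in WT, and its partner miR845b had 3 reads in all. miR775, which acts on a galactosyltransferase gene, had no read in hyl1-2, 5 and 3 in snrk2.2/3/6, and 5 and 3 in WT. Of the pair from MIR863, whose 3p strand acts on SERRATE, miR863-5p had 1 and 0 reads in hyl1-2 and 7 and 0 in snrk2.2/3/6, against 4 and 2 in WT. The 3p strand had 4 reads over the 6 libraries.

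For the next members no role is given. miR5654-3p had 0 and 6 reads in hyl1-2 and 11 and 3 in snrk2.2/3/6, against 8 and 10 in WT. miR5595a/miR5995b had 2 and 0 reads in hyl1-2 and 6 and 2 in snrk2.2/3/6, against 6 and 8 in WT. Both were lower in each hyl1-2 library than in either WT library, without passing the test in hyl1-2 (edgeR adjusted p = 0.190 for miR5654-3p and 0.0658 for miR5595a/miR5995b). miR779.2 had no read in hyl1-2, 4 and 0 in snrk2.2/3/6, and 3 and 4 in WT. miR5020b had no read in hyl1-2, 1 and 1 in snrk2.2/3/6, and 7 and 1 in WT. At such counts a single WT library set the level of miR5020b.

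Counts of another group of low members overlapped between hyl1-2 and WT. miR8175 had 8 and 3 reads in hyl1-2 and 3 and 8 in snrk2.2/3/6, against 5 and 2 in WT. miR5643a/b, which has 15 matches in the genome, had 2 and 1 reads in hyl1-2 and 0 and 2 in snrk2.2/3/6, against 8 and 1 in WT. miR861-3p had 0 and 3 reads in hyl1-2 and 5 and 2 in snrk2.2/3/6, against 1 and 3 in WT. With so few reads these were not distinguishable between genotypes. miR865-5p, with 0 and 3 reads in hyl1-2 and 4 and 0 in snrk2.2/3/6, against 2 and 4 in WT, was no different in this respect.

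The members at the edge of the selection were miR846-5p and miR5020b with 10 reads, and miR5651, miR833b and miR841a-3p with 9. None of the 56 members below 10 reads was found in more than 4 libraries.

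In snrk2.2/3/6 none of the 7 tested members differed from WT in either direction by edgeR, where 3.39% of all 59 tested sequences were called lower. The median log2 fold change was -0.599 over the 7 members and -0.725 over all 59 sequences. At an unadjusted p below 0.05, 2 members were lower. No share over all sequences is given for that threshold, so the count says nothing about the members alone. The 2 members were miR3932b-5p, with a log2 fold change of -2.05 ± 0.98, and miR825, with -2.25 ± 1.03 (edgeR adjusted p = 0.252 for each). The pooled reads of miR3932b-5p were 24.5% of WT (21.3 to 28.1) and those of miR825 21% (10.9 to 37.8). For miR3932b-5p the single libraries stood at 40.5% and 7.6% of the WT mean, both outside that counting interval. The snrk2.2/3/6 replicates decided these calls: without replicate 1 both were lower than in WT, miR3932b-5p by a log2 fold change of -3.71 (adjusted p = 0.00909, range over alternatives 0.00481 to 0.952) and miR825 by -4.87 (adjusted p = 0.0115, range 0.0115 to 0.952), and without replicate 2 neither was. limma on log2(RPTM + 1) called both, and DESeq2 called 0 members with genome-matched totals and 1, miR3932b-5p, with its own size factors. No share over all sequences is given for these alternative fits, so their counts say nothing about the members alone.

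The other tested members had log2 fold changes in snrk2.2/3/6 between -1.68 ± 0.92 for miR824-3p (edgeR adjusted p = 0.334) and 0.23 ± 0.86 for miR846-3p (edgeR adjusted p = 0.877). miR846-3p was at 119% of WT (83.3 to 170), with 56 reads in replicate 1 above and 16 in replicate 2 below both WT libraries. miR781a/b was at 96.1% (57.2 to 161) and miR447a.2-3p at 75.4% (56.6 to 100), each with replicate 1 above and replicate 2 below both WT libraries, on the RPTM scale as in reads. These 3 therefore changed direction with the library, and their levels in the mutant were not resolved.

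In the fit of 98 sequences no member was called in snrk2.2/3/6 in either direction, and 3.06% of all sequences were called lower at the adjusted threshold. The median log2 fold change was -0.698 over the 28 members and -0.713 over all 98 sequences. At an unadjusted p below 0.05, for which no such share is given, 5 members were lower, a count that says nothing about the members alone. The lowest p-values among the members were those of miR843 and miR5996. miR843 had 2 and 0 reads in the triple mutant and 12 and 17 in WT, or 6.84% of WT (0.791 to 27), with a log2 fold change of -3.73 ± 1.35 (edgeR adjusted p = 0.0998). For miR5996 there were 0 and 3 reads in the triple mutant and 17 and 18 in WT, or 8.50% (1.67 to 27), with a log2 fold change of -3.45 ± 1.27 (edgeR adjusted p = 0.0998). Both were low in each library of the mutant.

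The hyl1-2 levels of these sequences overlapped those of snrk2.2/3/6. miR843 had 7 and 0 reads in hyl1-2, or 20.7% of WT (7.67 to 48.4), and miR5996 had 3 and 6, or 22.1% (9.34 to 46.9). Both were lower in each hyl1-2 library than in either WT library, without passing the test (edgeR adjusted p = 0.0812 for miR843 and 0.0851 for miR5996). MIR843 (AT3G48057) has its match at chr3:17742147-17742167 on the plus strand. MIR5996 (AT4G06110) lies within an exon of UNE15 (AT4G13560), a protein-coding gene, with the match at chr4:7882848-7882869 on the minus strand, on the same strand and in the same region of the chromosome as MIR3932b.

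On the RPTM scale 11 of the 28 members had lower values in each snrk2.2/3/6 library than in either WT library, 0 had higher values, and 17 overlapped. Over all 98 sequences 45.9% were below. The 11 were miR3932b-5p, miR824-3p, miR825, miR447a-3p/b, miR5996, miR858b, miR843, miR5642a/b, miR5595a/miR5995b, miR472-3p and miR822-3p.

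In the direct comparison of the mutants, hyl1-2 had lower counts of 5 of the 7 tested members and higher counts of none, while 45.8% of all tested sequences were called lower. The comparison uses the same mutant libraries as those against WT and is not independent of them. The log2 fold changes were -6.31 ± 1.29 for miR447a.2-3p (edgeR adjusted p = 6.96e-05), -4.56 ± 1.37 for miR824-3p (0.00507), -3.14 ± 0.99 for miR846-3p (0.00750) and -2.62 ± 1.03 for miR3932b-5p (0.0300). miR781a/b, with no hyl1-2 read, was at least 6.07-fold lower in hyl1-2 (edgeR adjusted p = 0.0021, and 0.117 without a filter on low counts). That call was past the threshold in 12 of 16 alternatives. For miR825 the log2 fold change was -2.83 ± 1.37 (edgeR adjusted p = 0.0724) and for miR822-5p it was 0.18 ± 0.86 (edgeR adjusted p = 0.884). With TMM factors hyl1-2 had lower counts of 2 members and higher counts of 1, miR822-5p, while 13.6% of all tested sequences were called lower and 16.9% higher. The calls of miR3932b-5p and miR846-3p were lost with these factors, at log2 fold changes of -0.59 (adjusted p = 0.406) and -1.27 (adjusted p = 0.218), and that of miR824-3p at -2.87 (adjusted p = 0.0697). Without snrk2.2/3/6 replicate 1 they were lost too, and miR3932b-5p was then at -0.96 (adjusted p = 0.132). Over all alternatives the adjusted p ranged from 0.00224 to 0.406 for miR3932b-5p, past the threshold in 6 of 17, from 0.00109 to 0.218 for miR846-3p, past it in 9 of 17, and from 0.00273 to 0.125 for miR824-3p, past it in 9 of 16. The number of calls ranged from 1 to 6 when single libraries were left out, and it was 2 without hyl1-2 replicate 1, snrk2.2/3/6 replicate 1 or WT replicate 2, and 1 without hyl1-2 replicate 2.

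With the 28 members of the second fit, hyl1-2 had lower counts of 7 and higher counts of 1, while 34.7% of all sequences were called lower. The additional lower ones were miR824-5p and miR775, which had no read in hyl1-2 and passed the filter only through the other genotypes. Against the floor of reads they were at least 1.90-fold and 1.53-fold lower than in snrk2.2/3/6. Both hyl1-2 libraries were below both snrk2.2/3/6 libraries for 14 members, against 62.2% of all sequences, and above them for 1.

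The member that was higher was miR5642a/b. It had 6 and 16 reads in hyl1-2 and 1 and 0 in snrk2.2/3/6, compared with 7 and 4 in WT. The level in hyl1-2 was 5.88 ± 3.98 RPTM, against 0.296 ± 0.419 in snrk2.2/3/6 and 3.37 ± 1.29 in WT. Relative to WT it was at 9.01% in snrk2.2/3/6 (0.209 to 62.0), while the hyl1-2 libraries overlapped those of WT. It was below the filter of the first fit, and in the second fit the log2 fold change between the mutants was 3.98 ± 1.52 (edgeR adjusted p = 0.0309). Its 20 bases have 3 matches in the genome, in MIR5642a (AT3G06345) at chr3:14197116-14197135, in MIR5642b (AT2G03855) at chr2:3145-3164, which is also exonic in the protein-coding gene AT2G01008, and in an exon of AT2G16586 at chr2:7191162-7191181, all on the plus strand, so that the source of the reads was not resolved.

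Some further families, grouped by known target, were absent or nearly so. None of the 7 sequences of miR774, miR859 and miR2111, which act on F-box genes, had a read, nor had the 3 of miR780 and miR856, which act on cation/H+ exchanger genes. Of the 5 sequences of miR773, miR778 and miR823, which act on genes of DNA and histone methylation, 2 were detected, with 6 reads in all, 0 and 0 in hyl1-2, 1 and 0 in snrk2.2/3/6, and 3 and 2 in WT. Of the 9 sequences of families known beyond the Brassicaceae, 6 were detected, all of them from miR472, miR845 and miR858 described above. These had 11 and 11 reads in hyl1-2 and 49 and 13 in snrk2.2/3/6, against 42 and 38 in WT.

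In sequence the members resembled the other listed miRNAs in length but not in base composition. Of the 239 members, 77.8% were 21 nt long, against 75.5% of the other sequences, and 8 were 24 nt long. The first base was T (U in the RNA), the base preferred by AGO1, in 57.7% of members and 53.6% of the others, and A in 28% against 14.5%. The median GC content was 38.1% in members against 47.7% in the others. Detected members started with T more often than those without a read (64.3% against 54.2%) and had a higher median GC content (40.9% against 38.1%), differences given without a test. A single match in the genome was found for 79.5% of members and 68.2% of the others. Of the 28 members with at least 10 reads, 19 had 1 match, all had a match in an annotated MIR gene, and 7 had a match in an exon of a protein-coding gene on the same strand.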

How the data were processed

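Small RNA of rosette leaves was sequenced in 6 libraries, and the genotype and replicate number of each were taken from the sample labels. A read counts toward a miRNA in the authors' table only if it equals one of the mature sequences of miRBase release 21. Before this step adaptors were removed, lengths outside 18 to 30 nt were dropped, and TAIR10 served as the genome. The mapping tool is not given in the sources used here. The deposited counts are whole reads per sequence, without normalization. The deposited RPTM values are a signal that the authors obtained by dividing counts by the genome-matched total of each library. The totals were recovered from both columns, and recomputed RPTM differed from the deposited values by at most 4.97e-06. There were 0 per-sample columns left unused. Exact matching to a mature sequence misses processing variants, and reads of identical copies are merged: 16 members carry several names.

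The members, lists and tests were chosen with earlier results of these data known. Every member with at least 10 reads summed was named, and miR858a, miR5651, miR833b and miR841a-3p were added after their values were seen. edgeR 4.0.16 in R 4.3.3 (glmQLFit, glmQLFTest) was run with genotype as the only term and tested on simulated data, and standard errors were derived from the fold change and the F statistic (its square root as divisor). The biological coefficient of variation was 50.0%. Counts of replicate libraries differed by more than sampling noise (ratio of chi-square to degrees of freedom 11.7 in hyl1-2, 15.3 in snrk2.2/3/6 and 8.12 in WT), so each counted as 1 replicate. The p-values rest on the spread between these biological replicates, estimated over all 3 genotypes together and partly shared across sequences. A comparison of hyl1-2 with WT thus also carries the spread of the snrk2.2/3/6 libraries. In it the standard error of miR3932b-5p was 1.11, and 0.39 with only the 2 genotypes compared. Percentages of WT for single sequences use pooled reads scaled to genome-matched totals, with exact conditional binomial intervals. As alternatives, library sizes were set by TMM factors or by total miRNA counts, and the fit was repeated with DESeq2 1.42.0, limma 3.58.1 on log2(RPTM + 1), other filters on low counts, only the 2 genotypes compared, a replicate block, and leaving out each library. Added after the data were seen were a crossed replicate block, detection without each library, and the sum without miR3932b-5p and miR822-5p. Positions are exact matches to TAIR10.1 with its RefSeq annotation. Tables were handled in Python 3.11.15 with numpy 2.4.6 and pandas 2.3.3, intervals came from scipy 1.17.1, and figures were drawn with matplotlib 3.10.9.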

Additional observations from a re-analysis of the deposited data

How the results depend on the processing

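The number of tested members lower in hyl1-2 than in WT was 6, and it was 14 with at least 10 reads summed, 3 of 4 tested with a mean of at least 20 reads, and 0 without a filter, where 19 passed at an unadjusted p below 0.05. The call of miR846-3p was lost with TMM factors and total miRNA counts (edgeR adjusted p = 0.787 and 0.621). With DESeq2's size factors those of miR846-3p and miR825 were lost (DESeq2 adjusted p = 0.706 and 0.0897). Leaving out single libraries gave 4 to 6, with 4 without hyl1-2 replicate 1 or WT replicate 2. In snrk2.2/3/6 against WT the number was 0, but 1 with TMM factors, total miRNA counts or the size factors of DESeq2, 2 with limma, and 0 to 2 with single libraries left out, with 2 without snrk2.2/3/6 replicate 1. In hyl1-2 against snrk2.2/3/6 it was 5, but 2 with TMM factors, 3 with total miRNA counts, 2 with DESeq2's size factors, 0 without a filter (9 at an unadjusted p below 0.05), 3 with a mean of at least 20 reads, 2 with only these genotypes, and 1 to 6 with single libraries left out. The scalings based on miRNA reads also called miR822-5p higher in hyl1-2 than in snrk2.2/3/6, and higher than in WT. No share over all sequences is given beside the unadjusted counts or beside most counts of the alternative fits. Such counts therefore say nothing about the members alone.

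The replicate numbers of the labels are not said to mark a shared batch, and the deviations of replicate 1 correlated at 0.29 between hyl1-2 and WT, at -0.3 between snrk2.2/3/6 and WT and at -0.18 between the mutants. A replicate block left the counts at 6, 0 and 5. A crossed replicate block, added after the data were seen, gave 6, 0 and 4.

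Of the 84 members detected, 44 had at least 3 reads in a library and 28 at least 10 reads summed, and leaving out single libraries gave 78 to 84. The members' sum in hyl1-2, 11.2% of WT, was 60.9% when scaled to miRNA reads, 20.2% without miR3932b-5p and 14.6% without miR3932b-5p and miR822-5p. Their median, 12.5%, was 67.2% when scaled to miRNA reads, 2.61% over members with a mean of at least 10 reads, 30.6% from log2(RPTM + 1), and 2.62% to 12.5% with single libraries left out.

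Directions turned for 4 of the tested members. With TMM factors, total miRNA counts and DESeq2's size factors, the log2 fold change of miR822-5p in hyl1-2 against WT was 2.36, 2.01 and 2.14. In snrk2.2/3/6 against WT the same settings gave 0.25, 0.17 and 0.27 for miR822-5p, 0.27, 0.21 and 0.27 for miR447a.2-3p, and 0.71, 0.64 and 0.72 for miR781a/b. With single libraries left out, miR447a.2-3p ranged from -1.75 (without snrk2.2/3/6 replicate 1) to 0.25 (without replicate 2), miR781a/b from -1.01 to 0.49 and miR846-3p from -0.88 to 0.85. WT libraries also turned the sign, with miR781a/b at 0.27 without WT replicate 2 and miR846-3p at -0.03 without WT replicate 1. In hyl1-2 against snrk2.2/3/6, miR822-5p ranged from -0.28 without snrk2.2/3/6 replicate 2 to 0.85 without replicate 1, and it was at -0.23 without hyl1-2 replicate 1. The scalings based on miRNA reads remove a loss common to most miRNAs by construction. The cause of the other changes was not tested.

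Low counts limited the tests, since 7 of the 239 members passed the filter. Whether the 155 without a read are unexpressed in rosettes or below detection was not tested. With 2 libraries per genotype, of which 1 decided several calls, values of snrk2.2/3/6 are to be read by library.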
